A study of Homo sapiens with 16 samples.

Results

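The extracellular matrix genes described here are 38 genes for collagens, laminins, nidogens, matrix cross-linking enzymes, elastic fibre proteins, matricellular proteins and matrix proteoglycans. They were taken by symbol from a fixed list that was chosen with earlier results of these data known. Shares of members set beside those of all genes are therefore descriptions. All 38 had a row on the array, out of 14040 genes with a row of 1 symbol. All measurements came from cultures of U-87MG, a long-established line derived from a human glioblastoma. The study profiled 4 conditions on 16 single-colour arrays, with 4 arrays a condition that the labels call biological replicates, and nothing in the labels says which cultures shared a day. The treatment length is not given in the sources used here. Control cells received the carrier, 0.1% DMSO. The second condition received 25 µM I3P (indole-3-pyruvate, a tryptophan metabolite known as an agonist of the aryl hydrocarbon receptor, AHR), the third received 1 µM SR1 (StemRegenin 1, an AHR antagonist), and the fourth received both compounds at these doses (I3P+SR1). Every value is a log2 expression value made by RMA, so a difference of 1 is a 2-fold difference. The question was how far these matrix genes were expressed in the carrier, and how they differed between conditions within each replicate number.

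The extracellular matrix is the meshwork of secreted proteins that cells attach to and move through. Fibrillar collagens give it tensile strength, laminins and type IV collagen form the sheet-like basement membrane, and lysyl oxidases cross-link collagen and elastin. AHR is switched on by small molecules, enters the nucleus, pairs with ARNT and binds DNA at a short core motif.

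Array medians lay between 8.26 and 8.30, and the closest pair of arrays still differed by 0.263 in root mean square. The I3P array of replicate 1 stood apart. Its correlations over genes with the other 15 arrays were 0.869 to 0.907, against 0.917 to 0.979 among those 15. The array titles fall into a series SLI with replicates 1 and 2 and a series SMI with replicates 3 and 4, names that the labels do not explain. Of 8 AHR target genes, CYP1B1, AHRR and TIPARP fell in SR1 against DMSO, CYP1B1 by 2.57 (SE 0.15, limma adjusted p = 8.5e-08), and CYP1A1 and SERPINB2 also fell there with the replicate number as a block. The same list had 3 genes that rose in I3P+SR1 against SR1 (4 with the block), while I3P against DMSO called 0 of the 8 with or without it. Of the glioma and astrocyte markers, 5 of 8 had a row, and VIM and CD44 lay at percentiles 99.8 and 86.4 of all genes in DMSO, while GFAP and NES lay at 28.5 and 26.5.

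In DMSO the matrix genes spanned nearly the whole range of the array. Of the 38, 23 lay above the median gene (8.35), 14 lay at or above percentile 90 of all genes, and 8 lay below percentile 25. The median member was at percentile 62.3. A probe set's signal depends on its own probes as well as on its RNA, so these percentiles place a gene on the measuring range and give no order of abundance between genes. In the plot of the carrier arrays the genes are grouped by matrix class.

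**Figure D1:**
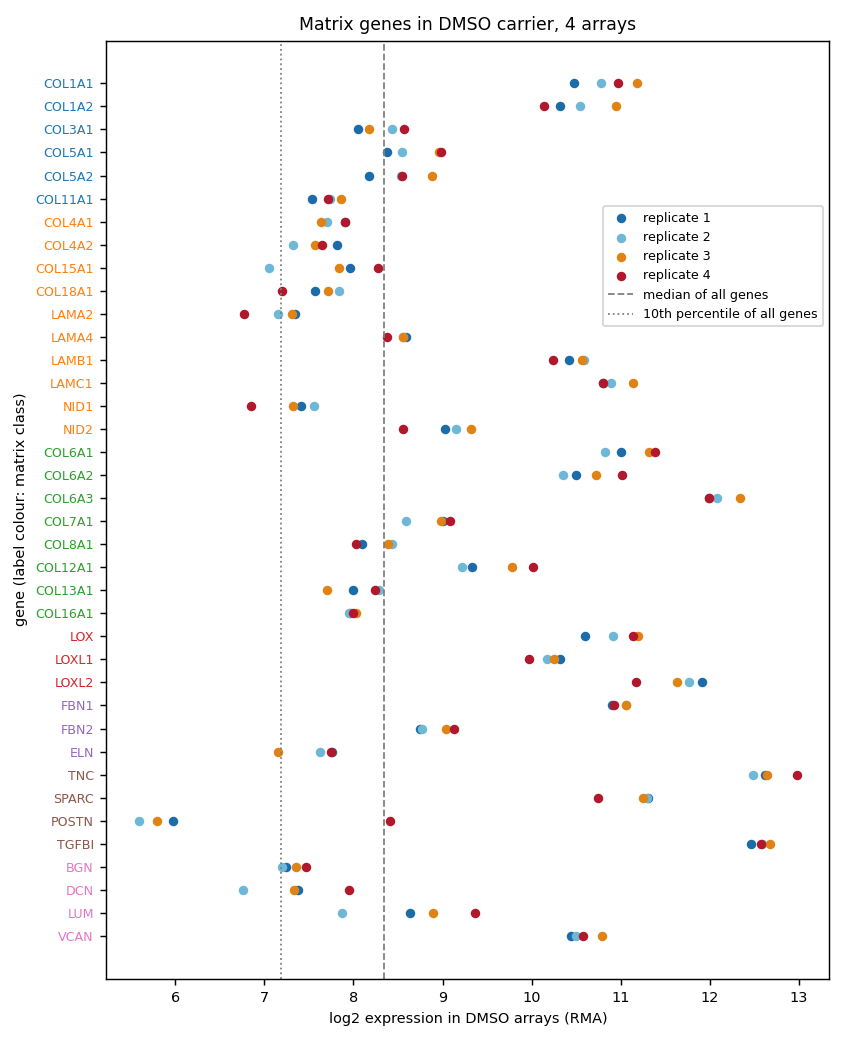
Log2 expression of the 38 matrix genes on the 4 DMSO arrays, 1 point per array coloured by replicate number, with genes grouped by matrix class through the colour of their labels. The dashed line is the median of all genes (8.35) and the dotted line their 10th percentile (7.19). TNC, TGFBI and COL6A3 sit at the right end, and POSTN is at the left end on 3 arrays and far to the right of them on the array of replicate 4.

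The 4 members with the highest DMSO values were TNC, TGFBI, COL6A3 and LOXL2. TNC, the gene of tenascin-C, an adhesion-modulating glycoprotein, was at 12.61, 12.49, 12.64 and 12.97 on the arrays of replicates 1 to 4. TGFBI, which encodes a secreted adhesion protein induced by TGF-beta, was at 12.46, 12.59, 12.67 and 12.57. Both genes lay near the top of the array, at percentiles 99.8 and 99.7. The TGFBI arrays lay closer together than those of TNC. COL6A3, a chain of the beaded-filament collagen type VI, was at 11.99, 12.08, 12.34 and 11.99. LOXL2, a lysyl oxidase-like enzyme, was at 11.92, 11.77, 11.63 and 11.17, with the array of replicate 4 lowest.

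The other cross-linking enzymes and matricellular genes were also in the upper part of the range, with the exception of POSTN. LOX, the founding lysyl oxidase, was at 10.96 ± 0.27 (SD, n = 4, as for all means of this kind below) and LOXL1 at 10.18 ± 0.15. SPARC, a collagen-binding matricellular protein, was at 11.15 ± 0.27. POSTN, which encodes periostin, was at 5.97, 5.60, 5.80 and 8.41 in DMSO, so that 3 arrays lay near the floor of the array and that of replicate 4 lay near the median gene.

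Among the fibrillar collagens, the type I chains stood highest, COL1A1 at 10.85 ± 0.30 and COL1A2 at 10.49 ± 0.35. The chains of type V collagen, which regulates fibril diameter, were at 8.72 ± 0.30 (COL5A1) and 8.53 ± 0.29 (COL5A2). COL3A1 was at 8.31 ± 0.24 and COL11A1 at 7.71 ± 0.13. These 6 genes ran from percentile 29.6 to percentile 94.7.

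The basement membrane genes were split. The shared laminin chains LAMC1 and LAMB1 were at 10.91 ± 0.16 and 10.45 ± 0.16, both above percentile 90. Of the alpha chains, which set the type of laminin, LAMA4 was at 8.52 ± 0.10. LAMA2, the alpha chain of muscle and nerve laminins, was at 7.34, 7.16, 7.31 and 6.78, at percentile 8.87. Of the nidogens, which link laminin to type IV collagen, NID2 was at 9.01 ± 0.33 while NID1 was at 7.41, 7.56, 7.32 and 6.85. LAMA2 and NID1 were both lowest on the array of replicate 4. The type IV collagen chains COL4A1 and COL4A2 were at 7.79 ± 0.14 and 7.59 ± 0.20, and COL15A1 and COL18A1, collagens with long interrupted helices, were at 7.78 ± 0.52 and 7.58 ± 0.28.

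Among the remaining collagens, COL6A1 and COL6A2 joined COL6A3 above percentile 90, at 11.13 ± 0.27 and 10.65 ± 0.29. COL12A1, a collagen that decorates the surface of fibrils, was at 9.59 ± 0.37 and COL7A1, the anchoring fibril collagen, at 8.92 ± 0.22. The short-chain collagen COL8A1 was at 8.24 ± 0.21, the membrane-spanning COL13A1 at 8.05 ± 0.27 and the fibril-associated COL16A1 at 7.98 ± 0.04. COL16A1 had the smallest spread of the 38 over the DMSO arrays.

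Of the elastic fibre genes, FBN1 (fibrillin-1) was at 10.99 ± 0.08, FBN2 (fibrillin-2) at 8.92 ± 0.20 and ELN (elastin) at 7.57 ± 0.29. Among the proteoglycan genes VCAN (versican, a large proteoglycan that binds hyaluronan) was at 10.58 ± 0.15, above percentile 90. The small leucine-rich proteoglycans, which bind collagen fibrils, lay lower. LUM (lumican) was at 8.69 ± 0.62 and DCN (decorin) at 7.36 ± 0.48, and BGN (biglycan) was at 7.24, 7.20, 7.36 and 7.46 on the arrays of replicates 1 to 4. The spread of LUM and DCN was several times that of BGN.

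No matrix gene passed the test in any of the 6 comparisons of conditions. The limma fit to all genes, with Benjamini-Hochberg adjustment, called 0 of the 38 at an adjusted p under 0.05 in each of them. Over all genes it called 0% for I3P against DMSO. It called 0.164% when SR1 was set against DMSO, 0.114% for I3P+SR1 against SR1, 0% for I3P+SR1 against I3P, 0% for I3P+SR1 against DMSO and 0.00712% for the interaction of I3P and SR1. With the replicate number as a block 0 of the 38 passed as well, where 0.321% of genes passed when SR1 was set against DMSO, and 0.321% again for I3P+SR1 and SR1. At an unadjusted p under 0.05 in that blocked fit the members numbered 7 of 38 for I3P against DMSO (6.28% of all genes), 6 for SR1 against DMSO (6.17%), 5 where I3P+SR1 was set against SR1 (7.56%), 7 for I3P+SR1 against I3P (6.92%), 1 for I3P+SR1 against DMSO (2.64%) and 1 for the interaction (3.96%). Without the block they numbered 2, 1, 2, 2, 1 and 0 in the same order, against 2.81%, 2.93%, 3.7%, 3.32%, 1.38% and 2.02% of all genes.

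The intervals bound how large a change these arrays could have missed. In the blocked fit the 95% interval lay within a log2 change of 1 either way, that is within 2-fold, for 38 of 38 members for I3P against DMSO and for 37 of 38 for SR1 against DMSO, POSTN being the exception. For the same comparisons all genes gave 96.9% and 97.6%. Within a change of 0.5 they numbered 27 (69.2% of all genes) and 28 (73.5%). The fit without the block had wider intervals. There 36 of the 38 lay within a change of 1 in each of the same comparisons, and 19 within 0.5. The median change of the members was -0.02 for I3P against DMSO, as for all genes. For SR1 against DMSO it was 0.02 against 0.00 over all genes, and for I3P+SR1 against SR1 it was -0.06 against -0.01. In bulk RNA a shift in the number of cells of a kind and a shift in RNA per cell cannot be told apart.

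**Figure D2:**
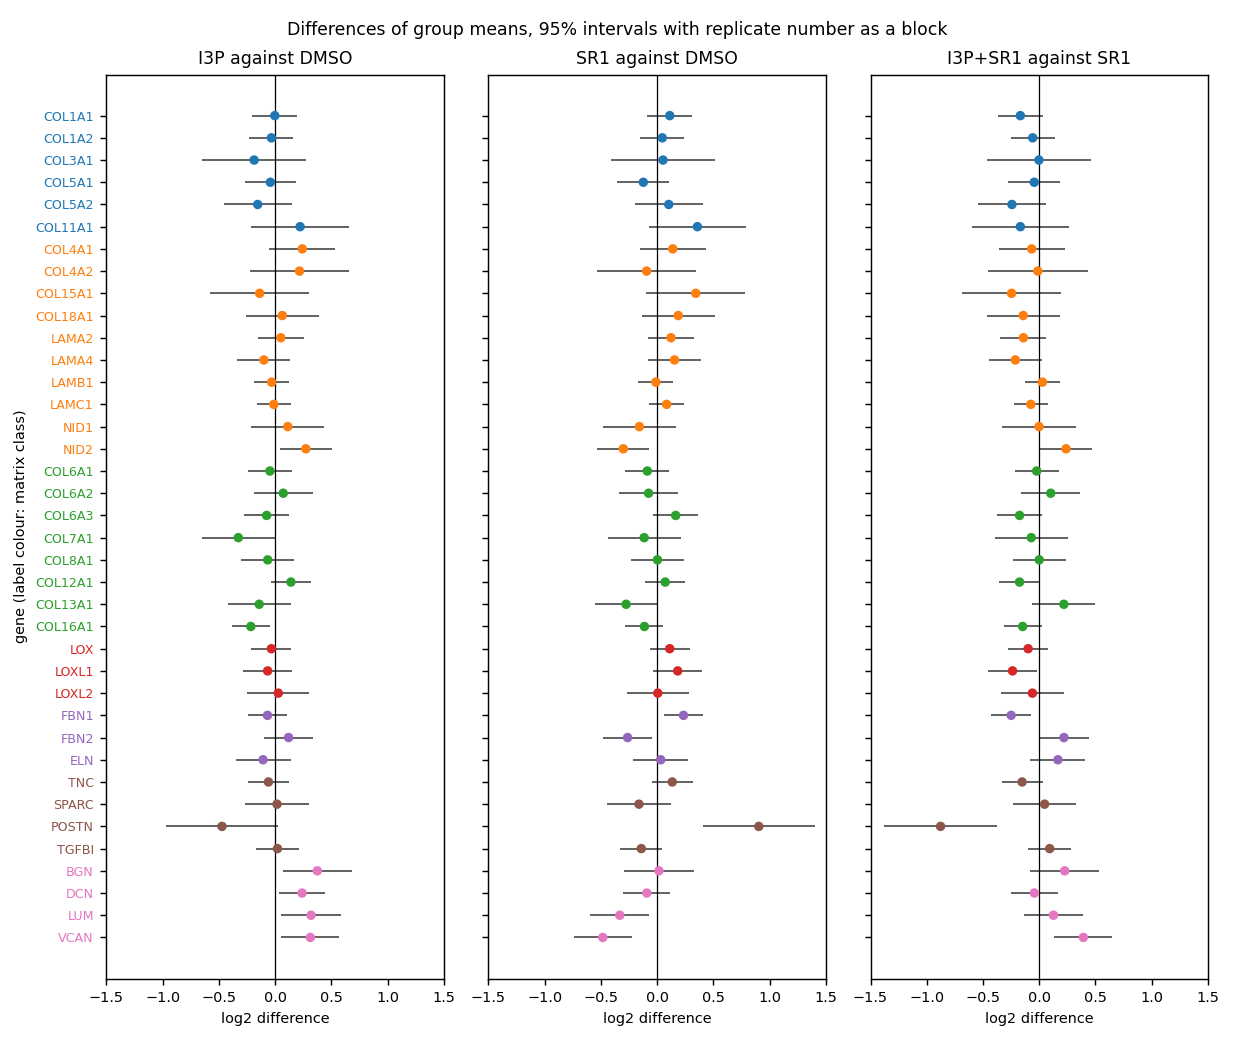
Differences of condition means (log2, points) with 95% intervals from the fit with replicate number as a block, for the 38 matrix genes in 3 comparisons, those of I3P and of SR1 with DMSO and that of I3P+SR1 with SR1. Most points lie within 0.5 of the vertical line at 0, and POSTN (0.90 and -0.88) and VCAN (-0.48 and 0.39) lie farthest from it in the middle and right panels, which share the SR1 arrays.

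Within replicate numbers, many members leaned the same way in all 4 pairs in SR1 against DMSO and in I3P+SR1 against SR1, by small amounts. For SR1 against DMSO 19 of the 38 had 4 differences of 1 sign, 10 higher and 9 lower, against 17.4% of all genes in either direction (9.24% higher and 8.12% lower). For I3P+SR1 against SR1 there were 16, 5 higher and 11 lower, against 19.6% of all genes (8.75% higher and 10.9% lower). For I3P against DMSO there were 7 (13% of all genes), for I3P+SR1 against I3P also 7 (12%), and for I3P+SR1 against DMSO 8 (11.4%). By the correlation of their arrays, not every replicate number pairs I3P with DMSO, with I3P+SR1 or with SR1. Differences by number that involve I3P alone are therefore descriptions of arrays with the same number. The first pair of comparisons shares the SR1 arrays, so a low or high SR1 array enters both. The higher genes under SR1 were COL1A1, COL6A3, COL11A1, COL15A1, LAMC1, TNC, LOX, LOXL1, FBN1 and POSTN, and the lower ones were COL5A1, COL7A1, COL13A1, COL16A1, SPARC, FBN2, DCN, VCAN and TGFBI. Groups of arrays that did not overlap at all were fewer. These were 4 members for SR1 against DMSO (COL11A1, COL16A1, FBN1 and VCAN, against 2.45% of all genes), 2 for I3P+SR1 against SR1 (FBN1 and ELN, against 2.91%), and 1 in each of the other comparisons, COL16A1 for I3P against DMSO (1.57%), ELN for I3P+SR1 against I3P (1.35%) and COL16A1 for I3P+SR1 against DMSO (1.22%). COL11A1 and ELN are named because they fall in these counts, after their values were seen.

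Of the 38, VCAN had the smallest p over the conditions and the largest share of its variation between them. An F test over the 4 conditions, with the replicate number as a block, gave VCAN adjusted p = 0.0299, and VCAN was the only 1 of the 38 to pass, where 0.748% of all genes passed. Without the block VCAN had adjusted p = 0.45, and 0 of the 38 and 0.249% of all genes passed. The calls of this test were added after values were seen. Its block joins the I3P arrays to the others by number, and not every number pairs them. In DMSO VCAN (array row 16986914, chromosome 5) was at 10.45, 10.50, 10.79 and 10.58 on the arrays of replicates 1 to 4. In I3P it was at 10.84, 10.96, 11.14 and 10.63, in SR1 at 9.76, 10.38, 10.32 and 9.92, and in I3P+SR1 at 10.11, 10.42, 10.83 and 10.58. All 4 SR1 arrays lay below all 4 DMSO arrays and below all 4 I3P arrays, while the I3P+SR1 arrays overlapped those of DMSO. The difference for SR1 against DMSO was -0.48, with SE 0.17 in the fit without the block. In the blocked limma fit its 95% interval was -0.74 to -0.23, with adjusted p = 0.17. The difference was 0.39 when I3P+SR1 was set against SR1 (blocked adjusted p = 0.34) and 0.31 for I3P against DMSO (blocked adjusted p = 0.77). The call depended on single arrays. It was lost without DMSO replicate 1 (adjusted p = 0.052), I3P replicate 1 (0.052), SR1 replicate 1 (0.14), I3P replicate 2 (0.10), DMSO replicate 3 (0.057), I3P replicate 3 (0.090), SR1 replicate 3 (0.14) or SR1 replicate 4 (0.15). It was also lost without any 1 replicate number, with adjusted p of 0.16 to 0.39. Within series SLI alone its adjusted p was 0.92, and within series SMI alone 0.39.

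The 250 bases before the VCAN transcription start are shown because VCAN is the member that passed the F test with the block. An AHR-linked motif can also be read in or out of them. The promoter sequences are RefSeq's, build GRCh38.p14, and an entry was found for 28 of the 38 genes. None was printed here for COL1A1, COL1A2, COL3A1, COL5A2, COL6A1, COL8A1, DCN, ELN, LOXL2 and LUM. The VCAN window is chr5:83471494-83471743 on the plus strand.
VCAN: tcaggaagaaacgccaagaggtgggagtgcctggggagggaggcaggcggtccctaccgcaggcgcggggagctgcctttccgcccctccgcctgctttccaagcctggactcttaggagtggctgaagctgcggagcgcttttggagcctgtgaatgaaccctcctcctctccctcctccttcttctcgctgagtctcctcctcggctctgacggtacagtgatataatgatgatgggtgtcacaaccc
The core motif of the AHR and ARNT pair, GCGTG, was searched on both strands, and this window held no match, so no base is in capitals. Of the 28 members 8 held at least 1 match (28.6%), against 36.2% of the promoters of 27305 genes of the same length. The 8 were COL4A2, COL12A1, COL13A1, COL15A1, COL18A1, LAMA2, LOX and FBN1. The members' windows were richer in G and C, with a median of 69.2% against 58.0%. A match describes letters in a window, and none of these arrays measured binding.

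POSTN, the gene of periostin, had the largest differences between condition means of any member. In DMSO (array row 16778264, chromosome 13) the arrays of replicates 1 to 4 were at 5.97, 5.60, 5.80 and 8.41, and in I3P at 5.01, 5.66, 5.48 and 7.74. In SR1 they were at 7.11, 6.99, 6.16 and 9.13, and in I3P+SR1 at 6.37, 6.08, 5.05 and 8.38. Within every replicate number the SR1 array was the highest, and the replicate 4 array was the highest of every condition. The groups overlapped, and the replicate numbers lay farther apart than the conditions. The difference for SR1 against DMSO was 0.90, with pairs of 1.14, 1.39, 0.36 and 0.72, and with SE 0.80 without the block and 0.23 with it. Blocked adjusted p was 0.20, and for I3P+SR1 against SR1, at -0.88, it was 0.21. Single arrays moved both differences. That for SR1 against DMSO was 0.31 without SR1 replicate 4 and 1.56 without DMSO replicate 4, and that for I3P+SR1 against SR1 was -0.28 without SR1 replicate 4, -0.40 without I3P+SR1 replicate 3 and -1.51 without I3P+SR1 replicate 4. No fold is given, since most POSTN arrays lay near the lower end of the measuring range. In the F test POSTN had adjusted p = 0.057 with the block, just outside the threshold.

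The POSTN window is shown beside that of VCAN because it is built differently. It is chr13:37598769-37599018 on the minus strand, with 36.4% G and C, and the capitals mark TATAAA, found 29 bases before the start.
POSTN: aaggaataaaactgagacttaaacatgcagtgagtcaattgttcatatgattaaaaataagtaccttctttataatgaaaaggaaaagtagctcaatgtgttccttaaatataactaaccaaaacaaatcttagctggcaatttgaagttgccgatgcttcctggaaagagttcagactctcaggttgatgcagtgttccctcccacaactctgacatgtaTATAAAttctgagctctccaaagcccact
TATAAA lay within the last 50 bases before the start in 2 of the 28 members (7.14%), POSTN and COL6A2, against 3.33% of all genes. No GCGTG was found in the POSTN window.

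The next 6 members in the F test were LUM, NID2, DCN, FBN1, FBN2 and COL16A1, with adjusted p of 0.086, 0.11, 0.29, 0.36, 0.40 and 0.44, so none of them passed. The plot of the 8 genes by condition joins the arrays of each replicate number.

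**Figure D3:**
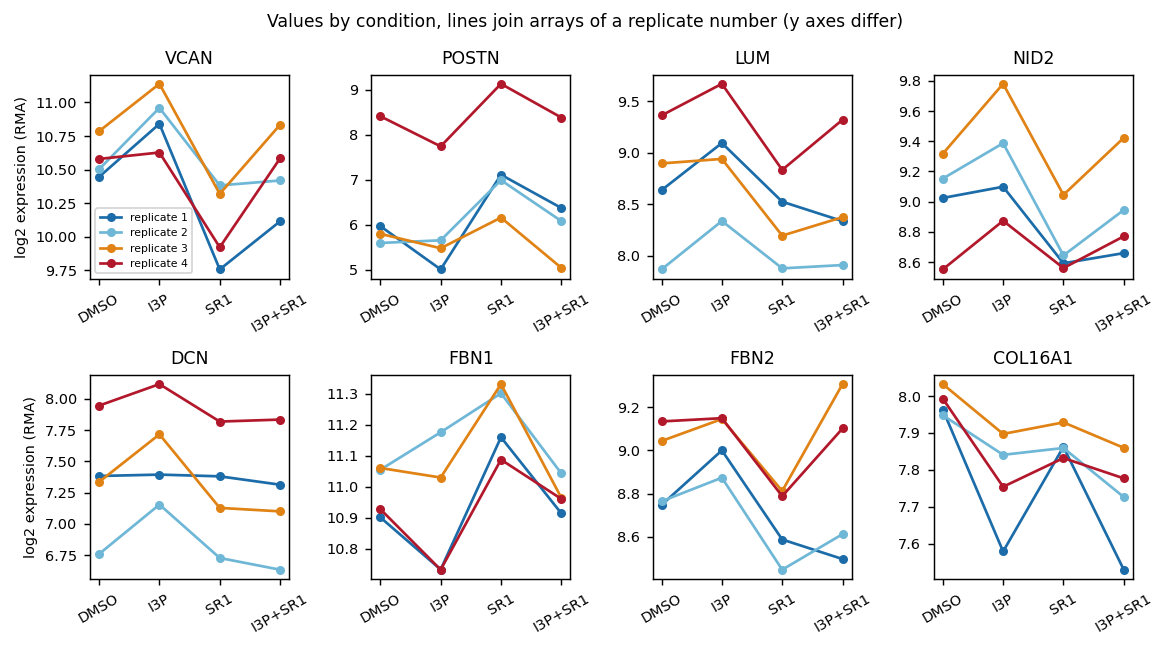
Log2 expression by condition for the 8 matrix genes with the smallest p in the F test over conditions, 1 panel per gene, with points for arrays and lines joining the arrays of a replicate number (the y axes differ between panels). In the VCAN panel the SR1 arrays are the lowest of each line, in the POSTN panel they are the highest, and in the LUM, DCN and POSTN panels the lines of different replicate numbers are far apart.

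LUM (array row 16768408, chromosome 12) was at 8.64, 7.87, 8.89 and 9.36 in DMSO, 9.09, 8.34, 8.94 and 9.67 in I3P, 8.52, 7.88, 8.19 and 8.83 in SR1, and 8.34, 7.91, 8.37 and 9.32 in I3P+SR1. DCN (array row 16768419, chromosome 12) was at 7.38, 6.76, 7.34 and 7.95 in DMSO, 7.39, 7.16, 7.72 and 8.12 in I3P, 7.38, 6.73, 7.13 and 7.82 in SR1, and 7.31, 6.63, 7.10 and 7.83 in I3P+SR1. Both genes were highest in I3P within each replicate number, and replicate 2 was the lowest in every condition for both. Their condition groups overlapped. LUM differed by 0.32 for I3P against DMSO and by -0.52 for I3P+SR1 against I3P, and DCN by 0.24 and -0.38.

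Together with VCAN and BGN these genes made up the proteoglycan class, whose 4 members were all above DMSO in the I3P means. The class median was 0.32 for I3P against DMSO, against -0.02 over the 38 members and -0.02 over all genes. BGN differed by 0.37, with blocked adjusted p = 0.77, the same as for the other 3. For I3P+SR1 against I3P all 4 were below, with a class median of -0.39, against 0.01 over all genes. None of the 4 passed in either comparison, both of which share the I3P arrays. BGN had its highest I3P value, 8.02, on the replicate 1 array that stood apart. The BGN differences from DMSO by number were 0.78, 0.50, 0.29 and -0.08. Without that array BGN differed by 0.26 for I3P against DMSO, and the class median was 0.30.

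NID2 (array row 16792955, chromosome 14) had the same order of condition means as VCAN. It was at 9.02, 9.15, 9.32 and 8.55 in DMSO, 9.10, 9.39, 9.78 and 8.87 in I3P, 8.59, 8.64, 9.04 and 8.56 in SR1, and 8.66, 8.94, 9.42 and 8.77 in I3P+SR1. The I3P array was the highest of each replicate number, and the groups overlapped. The differences were 0.27 for I3P against DMSO, -0.30 for SR1 against DMSO and 0.24 with I3P+SR1 set against SR1. The second of these was -0.20 without DMSO replicate 3 and -0.45 without DMSO replicate 4, and the last was 0.081 without I3P+SR1 replicate 3.

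The fibrillins were opposite to each other under SR1. FBN1 (array row 16808795, chromosome 15) was at 10.90, 11.06, 11.06 and 10.93 in DMSO, 10.73, 11.18, 11.03 and 10.73 in I3P, 11.16, 11.30, 11.33 and 11.09 in SR1, and 10.91, 11.04, 10.97 and 10.96 in I3P+SR1. FBN2 (array row 16999476, chromosome 5) was at 8.75, 8.76, 9.04 and 9.13 in DMSO, 9.0, 8.87, 9.14 and 9.15 in I3P, 8.59, 8.45, 8.81 and 8.79 in SR1, and 8.50, 8.61, 9.31 and 9.10 in I3P+SR1. All SR1 arrays of FBN1 lay above all DMSO and all I3P+SR1 arrays, while FBN2 was below DMSO in each of the 4 pairs with groups that overlapped. FBN1 differed by 0.23 for SR1 against DMSO and FBN2 by -0.26, with blocked adjusted p of 0.53 and 0.65, and the difference between the genes was not tested. COL16A1 (array row 16684465, chromosome 1) was at 7.96, 7.95, 8.03 and 7.99 in DMSO, 7.58, 7.84, 7.90 and 7.75 in I3P, 7.86, 7.86, 7.93 and 7.83 in SR1, and 7.53, 7.73, 7.86 and 7.78 in I3P+SR1. Every treated array of COL16A1 lay below every DMSO array, with differences of -0.22, -0.11 and -0.26 for I3P, SR1 and I3P+SR1 against DMSO.

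The arrays of I3P and SR1 were also set side by side, a comparison that was added after the values had been seen and was not tested. All 4 I3P arrays exceeded the SR1 array of the same replicate number for 6 members (NID2, FBN2, DCN, LUM, VCAN and TGFBI), against 9.67% of all genes. All 4 were below it for 8 members (COL6A3, COL16A1, LAMA4, LAMC1, TNC, FBN1, ELN and POSTN), against 12.3%. VCAN was higher in I3P by 0.80, with differences by number of 1.08, 0.58, 0.82 and 0.71. FBN2 was higher by 0.38, with differences by number of 0.41, 0.42, 0.33 and 0.36. The numbers of I3P and SR1 were not taken as pairs. These were the 2 members whose I3P and SR1 arrays did not overlap, against 4.74% of all genes.

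In the classes that make up fibres and basement membranes no gene passed between conditions. The median difference for SR1 against DMSO was 0.08 for the 6 fibrillar collagens and 0.10 for the 10 basement membrane genes, and for I3P+SR1 against SR1 it was -0.11 and -0.07. The type I collagen chains COL1A1 and COL1A2 differed by 0.11 and 0.05 under SR1, and the laminin chains LAMB1 and LAMC1 by -0.01 and 0.08. All 3 lysyl oxidase genes were above DMSO under SR1, by 0.18 for LOXL1, 0.11 for LOX and 0.01 for LOXL2. All 3 were below SR1 in I3P+SR1, by 0.24, 0.10 and 0.06 in size, and none passed in either comparison.

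The type IV collagen chains COL4A1 and COL4A2 lie head to head, and 126 bases separate their RefSeq starts at chr13:110307158-110307283. The interval is shown because both transcripts start from it, in opposite directions. It is printed on the plus strand, has 80.2% G and C, and no base is in capitals because no GCGTG lay within it on either strand. The match counted for COL4A2 lies in the rest of its window.
COL4A1 and COL4A2: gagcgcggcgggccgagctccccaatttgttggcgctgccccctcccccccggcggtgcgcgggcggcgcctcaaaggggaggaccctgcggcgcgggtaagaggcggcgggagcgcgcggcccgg
The chains differed by 0.24 and 0.22 for I3P against DMSO, and by 0.067 and 0.058 without the I3P array of replicate 1, which stood apart. They differed by 0.14 and -0.09 for SR1 against DMSO, and by -0.07 and -0.01 for I3P+SR1 against SR1. None of these passed.

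Replicate number accounted for more of the members' variation than condition did. For each gene the sum of squares over the 16 arrays was divided into a part between replicate numbers, a part between conditions and the rest. The members' median share between replicate numbers was 56.6%, against 34.6% over all genes, and their median share between conditions was 15.6%, against 14.2%. The share between replicate numbers was above 50% for 22 of the 38 (57.9%) and for 30.9% of all genes. Genes above the median level gave the same picture, with 69.3% for the 23 members there and 42.5% for all genes there. Without replicate 4 the medians were 42.4% and 22.8%.

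**Figure D4:**
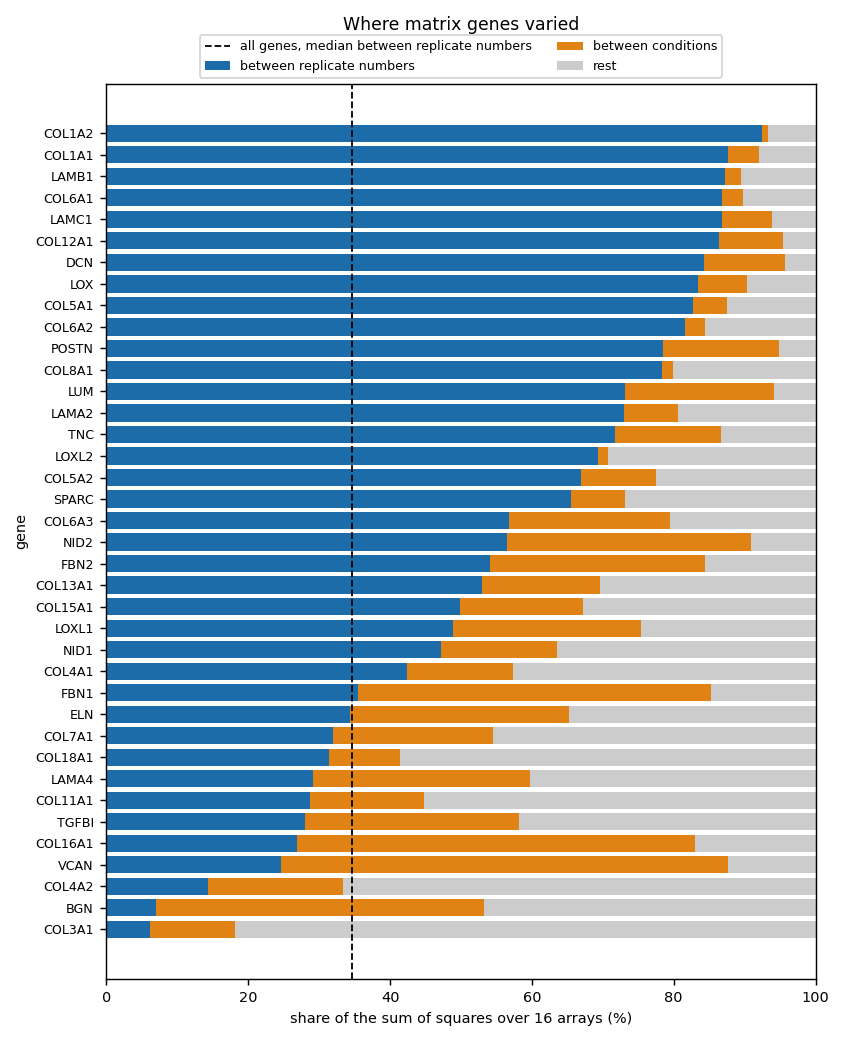
Share of the sum of squares over 16 arrays (%) that lay between replicate numbers (blue), between conditions (orange) and in the rest (grey) for each of the 38 matrix genes, sorted by the first share. The dashed line is the median share between replicate numbers over all genes (34.6%). COL1A2, COL1A1 and LAMB1 lie at the top with shares of 92.4%, 87.7% and 87.2%, and VCAN, COL16A1 and FBN1 have the widest orange bars.

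COL1A2 had the largest share between replicate numbers, 92.4%, with means over the 4 arrays of a number of 10.30, 10.58, 10.92 and 10.15. Its conditions took 0.907%. COL1A1 had 87.7%, with means of 10.46, 10.81, 11.22 and 10.98, and LAMB1 had 87.2%. The type I chains therefore parted at replicate 4, the lowest number for COL1A2 and the second highest for COL1A1. At the other end COL3A1 had 6.08%, BGN 6.94% and COL4A2 14.4%, while VCAN had 24.6% between replicate numbers and 63.1% between conditions. POSTN had the widest range of replicate means, 2.79, with replicate 4 at 8.42 and the others at 5.62 to 6.12. LUM followed with 1.30 and DCN with 1.11, and both were also highest in replicate 4. Replicates 3 and 4 held the highest mean of 14 and 13 members, against 21.1% and 28.1% of all genes. Replicates 1 and 4 held the lowest of 12 and 13, against 25.2% and 36.8%.

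Some members differed between the title series, though the calls depended on the fit. In a limma fit with the replicate number as a random block, 5 of the 38 differed between SMI and SLI, all 5 higher in SMI, against 3.28% of all genes in either direction and 1.87% higher. At an unadjusted p under 0.05 there were 12 members, against 19.6% of all genes. The 5 were COL12A1, COL5A1, COL6A1, COL1A1 and FBN2. The members' median difference was 0.11, against -0.02 for all genes. These calls rest on few cultures, since each series holds 2 replicate numbers. The block used 1 correlation of 0.163 for all genes, which need not hold for single members. The 4 arrays of each replicate number were also averaged, an alternative added after the values were seen. On these means limma called 0 of the 38 and 0 of all genes. Both SMI means lay above both SLI means in 10 members (21.4% of all genes) and below them in 5 (25.5%). An exact permutation test of 2 means against 2 cannot give a p under 0.333.

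COL12A1 (array row 17020847, chromosome 6) ranged from 9.62 to 10.05 with a median of 9.91 on the 8 SMI arrays, and from 9.16 to 9.58 with a median of 9.37 on the 8 SLI arrays. COL5A1 (array row 17090958, chromosome 9) ranged from 8.77 to 9.14 with a median of 8.88 in SMI, and from 8.14 to 8.55 with a median of 8.41 in SLI. COL6A1 (array row 16923843, chromosome 21) ranged from 11.18 to 11.39 with a median of 11.33 in SMI, and from 10.59 to 11 with a median of 10.90 in SLI. For these 3 members every SMI array lay above every SLI array, against 1.3% of all genes, and LOXL2 was the 1 member with every SMI array below, against 0.677%. COL1A1 (array row 16846589, chromosome 17) ranged from 10.80 to 11.36 with a median of 11.13 in SMI, and from 10.31 to 10.84 with a median of 10.68 in SLI. FBN2 ranged from 8.79 to 9.31 with a median of 9.12 in SMI, and from 8.45 to 9.0 with a median of 8.68 in SLI. The arrays of COL1A1 and FBN2 overlapped between the series.

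The differences were 0.52 (SE 0.09, adjusted p = 0.010) for COL12A1, 0.53 (SE 0.10, adjusted p = 0.013) for COL5A1 and 0.44 (SE 0.09, adjusted p = 0.024) for COL6A1. For COL1A1 the difference was 0.47 (adjusted p = 0.042) and for FBN2 0.37 (adjusted p = 0.045). COL6A2, at 0.50 (adjusted p = 0.058), and LOXL2, at -0.41 (adjusted p = 0.069), lay just outside the threshold. Leaving out all arrays of replicate 1, or all of replicate 2, left 0 members passing, and leaving out those of replicate 3 left 13. Leaving out those of replicate 4 left 2. Without a single array the count was between 2 and 6. It was 2 without DMSO replicate 1, and 3 without I3P+SR1 replicate 1, SR1 replicate 1, DMSO replicate 2, SR1 replicate 2, I3P+SR1 replicate 3, DMSO replicate 4, I3P replicate 4 or SR1 replicate 4. COL12A1 and COL5A1 passed without any 1 array. The shares of all genes that passed in these fits are not given, so the counts show only how the calls moved. Markers of fibroblasts and pericytes, which make much of the collagen in tissues, were higher in SMI for 5 of 6 genes, with a median of 0.17 and 0 passing. Neuronal markers were lower in SMI for 4 of 4 genes measured, with a median of -0.21 and 1 passing (SNAP25). Glioma and astrocyte markers were higher for 2 and lower for 3 genes, and epithelial markers for 1 and 3. Haematopoietic and endothelial markers were each higher for 1 and lower for 2, and 0 passed in these lists. The summed log2 level of the fibroblast and pericyte markers was 10.38 to 10.86 in DMSO, 10.43 to 10.72 in I3P, 10.66 to 10.86 in SR1 and 10.48 to 10.72 in I3P+SR1. The part of any of these lists in the difference between the series was not tested.

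**Figure D5:**
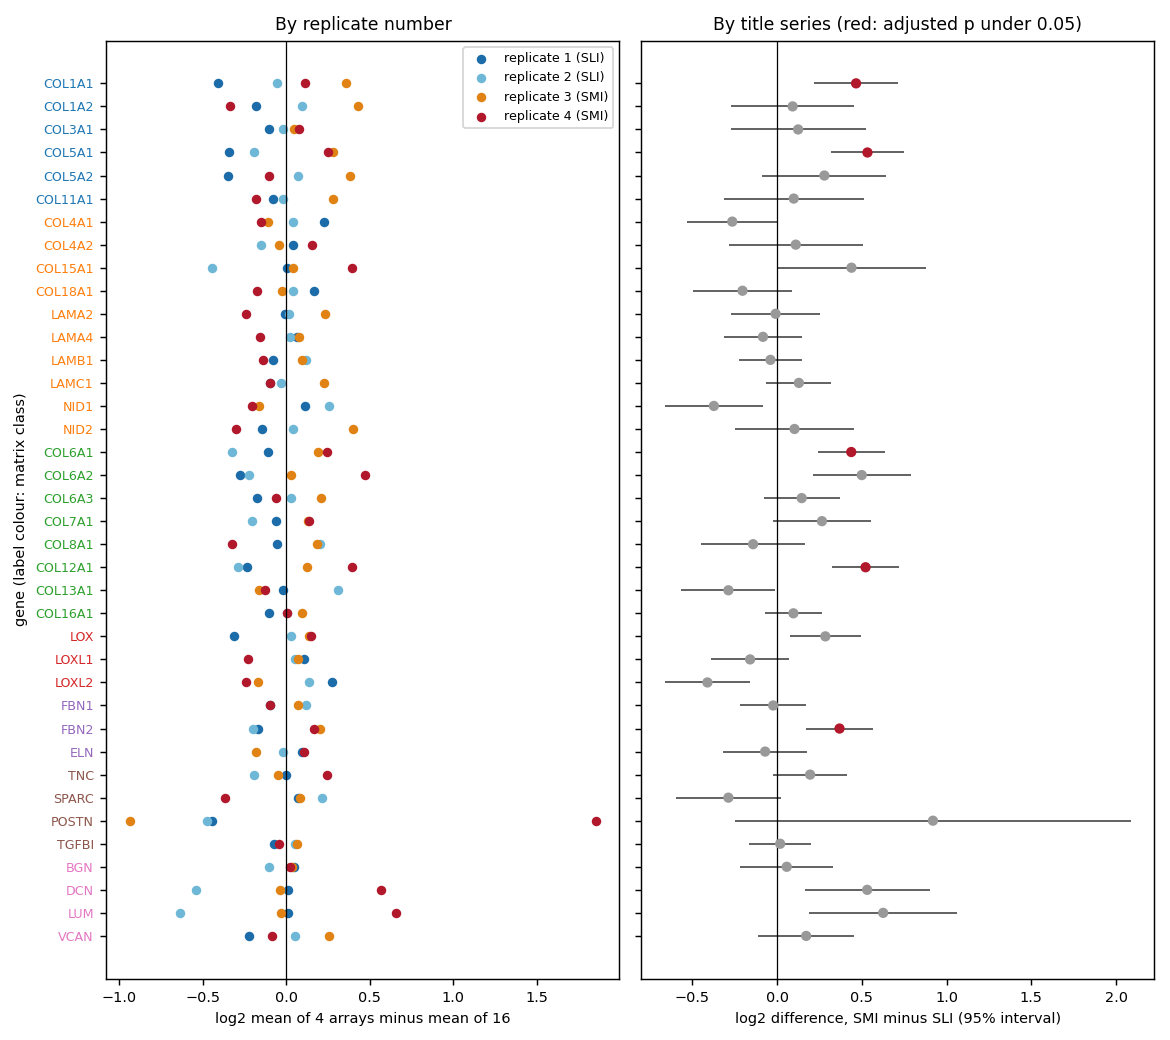
Left, the mean of the 4 arrays of each replicate number minus the mean of all 16 (log2) for each of the 38 matrix genes, with blue shades for series SLI and orange and red for series SMI. Right, the difference SMI minus SLI (log2) with its 95% interval, in red where adjusted p was under 0.05, which holds for COL1A1, COL5A1, COL6A1, COL12A1 and FBN2. POSTN lies farthest from 0 in the left panel because of replicate 4, and its interval on the right crosses 0.

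The window before the COL12A1 start is shown because this gene had the smallest p between the series and is 1 of the 8 members with the AHR and ARNT core motif. It is chr6:75206054-75206303 on the minus strand, and the capitals mark CACGC, which reads GCGTG on the other strand.
COL12A1: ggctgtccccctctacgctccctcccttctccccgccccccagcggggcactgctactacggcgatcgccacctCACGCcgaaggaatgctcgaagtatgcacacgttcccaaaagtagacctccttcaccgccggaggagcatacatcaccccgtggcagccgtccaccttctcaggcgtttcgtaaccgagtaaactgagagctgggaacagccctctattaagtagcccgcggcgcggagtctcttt
COL12A1 differed by 0.07 for SR1 against DMSO and by 0.14 for I3P against DMSO, and neither passed. VCAN, without the motif in its window, differed by -0.48 and 0.31. A link between the motif and the differences between conditions was not tested.

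Genes that process, bind and regulate matrix gave no call in the 6 comparisons of conditions either. Of 24 collagen processing genes (hydroxylases, chaperones and propeptide proteases) 23 were measured, and 0 passed in either direction in any of the 6 comparisons, with or without the block. The same held for 34 of 40 other matrix components, 20 of 21 matrix receptors and 19 of 20 TGF-beta pathway genes. In the F test with the block, 4 of these 96 genes passed (4.17%, against 0.748% of all genes), and without it 2 passed, THBS1 and ITGB8 (2.08%, against 0.249%). These lists were chosen with earlier results known, so the shares are descriptions. THBS1, the gene of thrombospondin-1, an activator of latent TGF-beta, had adjusted p = 0.022 and differed by -1.07 for SR1 against DMSO and by 0.85 with I3P+SR1 set against SR1. ITGA11, a collagen-binding integrin chain, had adjusted p = 0.0080 and differed by -0.71 and 0.65. ITGB8, an integrin chain that activates TGF-beta, had adjusted p = 0.015 and differed by -0.91 and 0.92. CTGF, a matricellular target of TGF-beta, had adjusted p = 0.039 and differed the other way, by 0.53 and -0.66. Of the other genes with the smallest p of their list, LOXL3 was at -0.51 and 0.41, TGFBR3 at 0.58 and -0.45, LEPRE1 at -0.21 and 0.25 and COLGALT2 at -0.27 and 0.08, and none of these passed.

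Between the series 6 of these 96 genes passed in the fit with the random block (6.25%, against 3.28% of all genes). TGFB2 and TGFB3, which encode TGF-beta ligands, were higher in SMI by 0.41 and 0.59 (adjusted p = 0.019 and 0.015). SMAD3, which carries the TGF-beta signal to the nucleus, was at -0.57 (adjusted p = 0.024), LTBP1, which holds latent TGF-beta in the matrix, at -0.49 (adjusted p = 0.046), and CTGF at -0.51 (adjusted p = 0.049). ITGA2, a collagen receptor chain, was at -0.58 (adjusted p = 0.012). The median of the 19 TGF-beta pathway genes was -0.25, against -0.02 over all genes. As for the matrix genes, the fit to means of each replicate number called no gene.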

How the data were processed

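Expression was measured in 16 U-87MG cultures on Affymetrix arrays from 100 ng of RNA each, per the labels' protocols. The authors deposited log2 values that had been background corrected, quantile normalized and summarized with oligo and RMA, per the submitters' processing notes, which name no version. No source used here gives the genome build or the row filter. RMA equalizes the distribution of all arrays, so a shift shared by most genes would not be seen, and arrays give no read depth, so their number limits the precision.

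Of 16510 rows, 14096 had 1 gene symbol in the platform annotation, 795 had several and 1619 were not listed. The row with the highest mean stood for each of 14040 genes, and each of the 38 matrix genes had 1 row. The members and all gene lists were chosen with earlier results of these data known. Conditions were compared with limma 3.58.1 under R 4.3.3 (lmFit, then eBayes, on all genes and 16 arrays, a mean per condition, two-sided, Benjamini-Hochberg over all genes, threshold 0.05). The title series were compared with the replicate number as a random block (duplicateCorrelation). P-values measure the spread between these cultures. Tables were made with Python 3.11.15, pandas 2.3.3 and numpy 2.4.6, and the fits were tested on simulated data.

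Replicate numbers come from the labels and are shared by the conditions. The correlation of deviations of arrays with the same number was 0.30 to 0.52 for SR1 and DMSO, 0.37 to 0.65 for I3P+SR1 and SR1, and 0.22 to 0.52 for I3P+SR1 and DMSO, so these numbers were treated as pairs. For I3P and DMSO it was -0.07, 0.39, 0.25 and 0.51 in replicates 1 to 4. For I3P+SR1 and I3P it was -0.09, 0.33, 0.07 and 0.55, and for I3P and SR1 0.061, 0.35, 0.14 and 0.58. Some values of each lay near 0, so these numbers were not taken as pairs. Differences by number and blocked values of these comparisons are given as descriptions and as an alternative fit.

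Array values were given for members that pass any comparison of conditions with or without the block, the 8 with the smallest p of the F test with the block, those that pass SMI against SLI, and the 4 highest and 4 lowest in DMSO. Of the other lists, genes that pass and the 2 with the smallest F test p were named. Alternatives were limma-trend, robust eBayes, array weights, other normalizations, gene filters, all deposited rows, each title series alone, and arrays or replicate numbers left out. The calls of the F test, the fit to means of each replicate number and the comparison of I3P with SR1 were added after values were seen.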

Additional observations from a re-analysis of the deposited data

Results flagged for a closer look

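In 152 groups of 4 arrays, 1 for each matrix gene and condition, 8 single arrays lay far from the other 3 of their group. Chance alone gives such an array in about 1 of 20 groups. The array of replicate 4 was the lowest of its group for COL8A1 (7.72) and COL11A1 (7.33) in I3P+SR1, and for LAMA4 (8.38) and SPARC (10.74) in DMSO. It was the highest of the DMSO arrays for POSTN (8.41), as replicate 4 was in every other condition. The array of replicate 2 was the highest for COL13A1, the membrane-spanning collagen, in SR1 (8.14) and in I3P+SR1 (8.46). The SR1 array of replicate 1 was the lowest of its group for LOX (10.64).

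COL12A1 was marked because the effect of I3P had opposite signs without and with SR1 in every replicate number. Not every number pairs I3P with DMSO, however. Without SR1 the I3P array exceeded the DMSO array by 0.25, 0.19, 0.08 and 0.03 in replicates 1 to 4. With SR1 the 4 differences were -0.23, -0.35, -0.08 and -0.04. The interaction was -0.31, which did not pass in limma (adjusted p = 1.0 without the replicate block and 0.995 with it).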

How the results depend on the processing

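The count of 0 matrix genes passing held in all 174 alternative fits of the 6 comparisons of conditions, with a lowest adjusted p of 0.064. Most of these fits had no replicate block, and none joined the block to limma-trend, array weights or re-centring. The replicate block, which the data pair only in part, changed no call for I3P against DMSO or for I3P+SR1 against I3P, whose counts stayed 0. The F test called 1 member with the replicate block, 0 with no replicate block, 2 with limma-trend, 3 with array weights, 2 with arrays re-centred on the median, 0 within SLI, 0 within SMI, and 0 to 2 with arrays or a replicate number left out. SMI against SLI called 5 members with the random block, 11 with no replicate block, 8 with array weights, 0 on means of each replicate number, and 0 to 13 with arrays or a replicate number left out. For most of these fits of the F test and of the series the share of all genes called is not given. Their counts therefore show only how the calls moved. With a replicate number left out, members with 1 direction in all remaining numbers came to 10 to 12 for I3P against DMSO. For I3P+SR1 against I3P they came to 9 to 12, and fewer differences had to match. The median share between replicate numbers was 42.4% to 63.9% and between conditions 14.4% to 22.8% with 1 number left out. With arrays left out, DCN ranged from -0.29 to 0.10 for SR1 against DMSO and from -0.25 to 0.15 for I3P+SR1 against SR1, and LUM from -0.15 to 0.32 for I3P+SR1 against SR1, so these differences have no settled sign. LUM was at -0.078 in that comparison within SLI. Apart from the parts stated, the cause of each move was not tested.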
